A study of Mus musculus with 5 samples.

Results

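TOFA effector and Rap effector Th1 cells, 1 array each, differed in the same direction from the control effector Th1 array by at least 2-fold in 237 of 13385 genes compared. Of these shared genes, 80 were higher and 157 were lower in both inhibitor arrays than in the control. These counts move with the floor set for dim signals: they were 463 and 606 with the floor at the 20th percentile, and 25 and 59 at the 60th, in place of the 40th used here. Under 7 alternatives of normalization, floor and probe set, 10 of the 80 and 31 of the 157 genes were called each time. The lower genes included Fam183b, the protease inhibitor Serpinb1a, the selenium binding protein Selenbp1 and the glycolytic enzymes Aldoc and Eno2. The higher genes included Rtp4, Mx1 and other interferon-inducible genes and the transcription factor Egr1. A gene belonged to the shared set when log2 TOFA minus control and log2 Rap minus control were both at least 1, or both at most -1.

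The cells were CD4 T cells from the spleens of BALB/c mice. The TOFA effector, Rap effector and control effector cells had been cultured for 5 days in Th1 conditions with IL-2 at 15 ng/ml and IL-12 at 10 ng/ml, per their protocol label. The same protocol text is attached to the naive and memory samples, whose source names describe primary and not cultured cells, so the labels do not settle whether the naive array, against which the control is checked, came from uncultured cells. These 3 effector arrays were part of 5 arrays in all, and the labels state neither the number of mice behind an array nor the doses of the inhibitors nor the vehicle of the control. TOFA blocks the enzyme acetyl-CoA carboxylase, and the labels do not spell out "Rap", an abbreviation often used for rapamycin, an inhibitor of the kinase complex mTORC1. TOFA and Rap are different treatments and not replicates of each other, so no test, SD or p-value between groups could be given. Both differences were taken from the same control array, and an error in that array moves both the same way.

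Naive CD4 T cells that are stimulated in the presence of IL-12 become Th1 cells, a helper lineage that secretes interferon gamma and acts against intracellular microbes. Their growth depends on a switch to high glycolysis and to synthesis of lipids, for which acetyl-CoA carboxylase makes the building block malonyl-CoA. mTORC1 senses nutrients and growth factor signals, and promotes glycolysis through HIF-1 and lipid synthesis through the SREBP factors. Interferon-inducible genes are switched on when interferons bind their receptors, while immediate early genes such as Egr1 answer within minutes to antigen receptor and MAP kinase signals.

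Promoter sequences of 4 of the shared genes are shown because they carry the motifs whose shares are given further on. They come from RefSeq, build GRCm38.p6 of the C57BL/6J reference and not of BALB/c. Each runs from 250 bases before to 50 bases after a start of the gene, written along the gene's strand. Capitals mark the hypoxia response element core ACGTG or its reverse complement in Aldoc (chr11:78322823-78323122, + strand) and Selenbp1 (chr3:94932833-94933132, + strand), both lower in the inhibitor arrays. They mark the interferon-stimulated response element in Cxcl10 (chr5:92348840-92349139, - strand) and Ddx60 (chr8:61927837-61928136, + strand), both higher in the inhibitor arrays. Another RefSeq start of Aldoc has a window without the hypoxia core. That core was held by 33.9% of the shared lower genes with a promoter, against 28.7% of the genes compared. A motif match is a description of the letters and not a binding site.
Aldoc: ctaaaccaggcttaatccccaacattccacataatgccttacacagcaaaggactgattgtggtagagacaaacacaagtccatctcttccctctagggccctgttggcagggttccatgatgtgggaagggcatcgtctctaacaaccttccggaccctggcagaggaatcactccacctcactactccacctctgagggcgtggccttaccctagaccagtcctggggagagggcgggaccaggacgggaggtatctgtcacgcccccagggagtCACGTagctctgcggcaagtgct
Selenbp1: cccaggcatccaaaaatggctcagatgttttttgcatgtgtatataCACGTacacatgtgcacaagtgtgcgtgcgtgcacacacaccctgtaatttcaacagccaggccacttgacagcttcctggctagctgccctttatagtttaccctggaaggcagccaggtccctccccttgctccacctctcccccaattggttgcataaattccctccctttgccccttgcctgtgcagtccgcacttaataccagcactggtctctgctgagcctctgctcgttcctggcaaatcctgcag
Cxcl10: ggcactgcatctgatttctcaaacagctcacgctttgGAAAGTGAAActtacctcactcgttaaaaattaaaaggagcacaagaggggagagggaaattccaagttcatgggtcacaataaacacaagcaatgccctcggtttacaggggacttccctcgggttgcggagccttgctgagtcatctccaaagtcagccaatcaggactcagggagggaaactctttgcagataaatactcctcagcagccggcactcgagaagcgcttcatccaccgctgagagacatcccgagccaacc
Ddx60: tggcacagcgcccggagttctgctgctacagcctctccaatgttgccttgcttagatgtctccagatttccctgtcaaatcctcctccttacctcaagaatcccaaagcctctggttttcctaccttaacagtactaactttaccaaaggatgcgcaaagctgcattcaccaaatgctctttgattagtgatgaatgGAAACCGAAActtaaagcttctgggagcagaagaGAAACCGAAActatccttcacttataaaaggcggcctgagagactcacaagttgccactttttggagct

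The values below are quantile-normalized signals, a linear measure of probe brightness that shows a gene's level relative to other arrays and not relative to other genes. Signals under 43.4, the 40th percentile, were raised to that value as a floor before the log2 difference was taken, so a fold against a group at the floor is a lower bound. Summed signals of the T cell markers were 37529 in TOFA effector, 40053 in Rap effector and 38585 in control effector cells. Those of 5 B cell markers were 2185 in TOFA effector, 2439 in Rap effector and 1742 in control effector cells, and 32044 in naive cells. Macrophage markers summed to 498, 258 and 273 in the TOFA, Rap and control effector arrays, and Lyz2, C1qa and Cd79a lay below the floor in all 3. In such bulk samples, fewer cells of a type and less RNA per cell cannot be told apart.

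Among all genes compared, 0.598% were 2-fold higher and 1.17% were 2-fold lower in both inhibitor arrays. TOFA alone against control gave 318 higher genes (2.38%) and 276 lower genes (2.06%), and Rap against control gave 234 higher (1.75%) and 503 lower (3.76%). The shared higher genes were thus 25.2% of those higher with TOFA and 34.2% of those higher with Rap. The shared lower genes were 56.9% of those lower with TOFA and 31.2% of those lower with Rap. Another 10 genes were 2-fold higher with TOFA and lower with Rap, and 1 gene went the opposite way. Because both comparisons use 1 control array, an error in that array would raise these overlaps, and its size could not be measured.

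**Figure D1:**
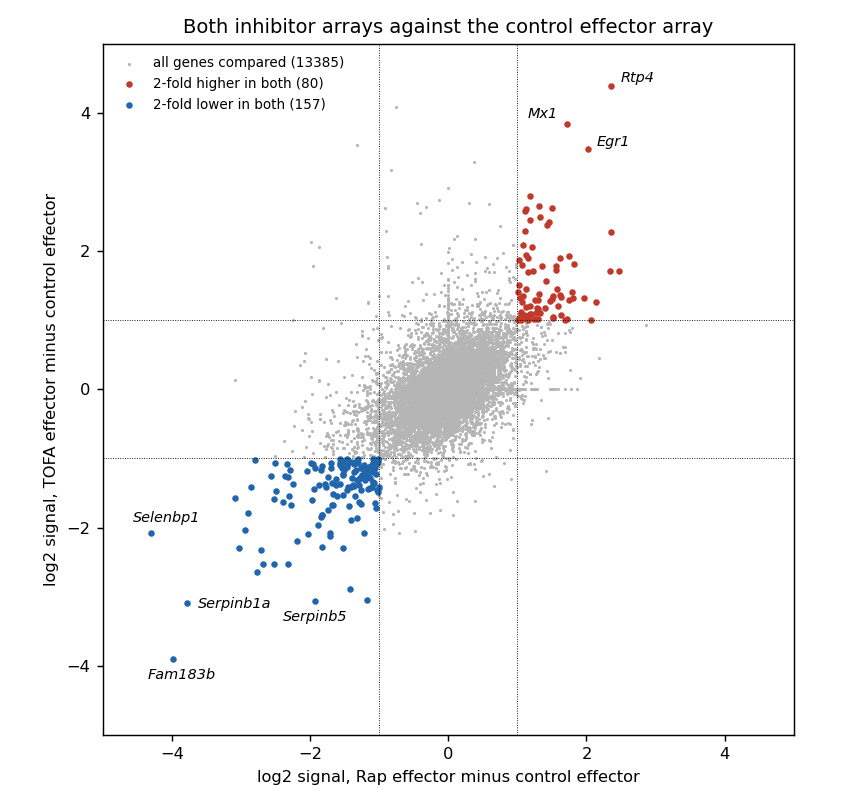
Each point is a gene, with log2 Rap effector minus control effector on the horizontal axis and log2 TOFA effector minus control effector on the vertical axis. Dotted lines mark 2-fold. The 80 genes higher in both arrays lie at the upper right, led by Rtp4, and the 157 genes lower in both lie at the lower left, where Selenbp1 is farthest out for Rap and Fam183b for TOFA.

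Most shared differences were close to the threshold. In both arrays, 9 higher and 27 lower genes passed 3-fold, and 3 higher and 12 lower genes passed 4-fold. The medians over the 80 higher genes were 1.34 for TOFA and 1.30 for Rap on the log2 scale, and those over the 157 lower genes were -1.27 for TOFA and -1.41 for Rap. Just inside the threshold, the galectin-3 binding protein gene Lgals3bp was higher by 1.001 with TOFA and 1.05 with Rap on the log2 scale, and the mitochondrial carrier Slc25a26 by 1.004 and 1.16. Lncppara (0.99 with TOFA and 1.28 with Rap) and Arhgap39 (1.04 and 0.99) lay just outside it. On the lower side, Prune2 (-1.42 and -1.01) and Rsph1 (-1.01 and -1.56) were just inside, while Ier5l (-1.55 and -0.998) and Iglon5 (-0.997 and -1.07) were just outside.

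Many shared genes were dim. In 26 of the 80 higher and 64 of the 157 lower genes, the brightest of the 3 effector arrays was under the 60th percentile, a signal of 150.5. The control was at the floor in 30 of the higher genes, and TOFA or Rap or both were at the floor in 72 of the lower genes, both in 35 of them. Predicted genes made up 8 of the higher and 13 of the lower set. Genes with an array at the floor give only a bound on their difference.

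Selenbp1, a selenium binding protein that oxidises methanethiol, had a signal of 536 in TOFA effector and 114 in Rap effector cells, against 2257 in control effector and 60.5 in naive cells. The control was thus the highest of these arrays, 4.21-fold above TOFA and 19.8-fold above Rap. A further probe set of the gene differed by -2.36 with TOFA and -4.83 with Rap on the log2 scale. Selenbp1 has a near-identical paralog, Selenbp2, whose transcripts these probes may also read.

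Aldoc, the brain-type isoform of the glycolytic enzyme aldolase, had a signal of 4170 in TOFA effector and 2601 in Rap effector cells, against 9323 in control effector and 98.9 in naive cells. The inhibitor arrays lay 2.24-fold and 3.58-fold below the control, and far above the naive array. The other Aldoc probe set went the same way, by -1.42 with TOFA and -2.37 with Rap.

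Rtp4, an interferon-inducible chaperone of receptor transport, had a signal of 1641 in TOFA effector and 401 in Rap effector cells, against 78.1 in control effector and 2561 in naive cells. Here the control was the lowest array, 21.0-fold below TOFA and 5.13-fold below Rap. A second, dimmer Rtp4 probe set had 53.2 in TOFA effector cells and lay under the floor in Rap effector and control effector cells. Its differences, 0.30 with TOFA and 0.00 with Rap, were thus set by the floor, and the value rests on 1 probe set.

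Egr1, a zinc finger transcription factor of the immediate early class, had a signal of 966 in TOFA effector and 351 in Rap effector cells, against 86.8 in control effector and 4383 in naive cells. It was 11.1-fold higher with TOFA and 4.05-fold higher with Rap than in the control, and both inhibitor arrays stayed below the naive one. In Selenbp1, Aldoc, Rtp4 and Egr1 alike, the control lay at one end of the TOFA, Rap, control and naive arrays and the naive array at the other.

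Several of the largest shared increases were in genes known for antiviral defence. Mx1, a dynamin-like antiviral GTPase, had a signal of 623 in TOFA effector and 143 in Rap effector cells, against a control at the floor and 113 in naive cells, which puts it at least 14.4-fold and at least 3.29-fold above the control. Cxcl10, a chemokine that draws CXCR3-bearing T cells, had 268 and 123 with the control again at the floor, and was at least 6.18-fold higher with TOFA and at least 2.83-fold higher with Rap. Ddx60, a helicase-related protein of antiviral RNA sensing, had 421 and 166 in TOFA and Rap effector cells, against 67.1 in control effector and 882 in naive cells. In each of these genes the TOFA array was the higher of the inhibitor arrays.

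The same order was seen in brighter genes of the group. Xaf1, a proapoptotic interferon-inducible gene, had a signal of 6100 in TOFA effector and 3124 in Rap effector cells, against 1141 in control effector and 2619 in naive cells. Samd9l, an interferon-inducible restrictor of virus growth, had 1329 and 686 in TOFA and Rap effector cells, against 256 in control effector and 7359 in naive cells. Gbp6, a guanylate binding protein that interferon gamma induces, had 6397 and 5284, against 1719 in control effector and 3114 in naive cells, and its other probe set differed by 1.93 with TOFA and 1.57 with Rap. For Gbp6 both inhibitor arrays lay above the naive array, whereas for Samd9l both lay below it.

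Other shared higher genes encode surface molecules and regulators of lymphocytes. Cd83, a surface marker of activated lymphocytes and dendritic cells, had 552 in TOFA effector and 681 in Rap effector cells, against 219 in control effector and 442 in naive cells. Selp, which encodes the adhesion molecule P-selectin, had 808 and 1262 in TOFA and Rap effector cells, against 322 in control effector and 95.3 in naive cells, and 2 further probe sets were also 2-fold higher in both. Pdcd1lg2, which encodes the PD-1 ligand PD-L2, had 522 and 525, against 213 in control effector and 77.3 in naive cells. Selp and Pdcd1lg2 differed from Cd83 in the place of the naive array, which lay below the control in these 2 genes and above it in Cd83. Cd83 is also a gene of dendritic cells, whose markers summed to 124 in TOFA effector, 169 in Rap effector and 202 in control effector cells, and of B cells, and their part in the difference was not tested.

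Aff3, a nuclear protein of transcription elongation complexes, had 2414 in TOFA effector and 3706 in Rap effector cells, against 735 in control effector and 3096 in naive cells. This was a difference of 3.28-fold and 5.04-fold, and its other probe set was also 2-fold higher in both. With a control at the floor, the organic anion transporter Slco2b1 was at least 3.28-fold higher with TOFA and at least 5.55-fold higher with Rap. Cep290, a protein of the centrosome and the cilium base, was 3.80-fold and 3.34-fold higher at signals of 202 in TOFA and 177 in Rap effector cells, against 53.05 in the control. Caskin2, a scaffold protein, was at least 2.51-fold higher with TOFA and at least 3.49-fold higher with Rap.

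The shared lower genes held 5 members of the serpin family. Serpinb1a, an inhibitor of neutrophil serine proteases, had a signal of 170 in TOFA effector and 105 in Rap effector cells, against 1448 in control effector and 264 in naive cells, and was 8.50-fold and 13.7-fold lower. Serpinb5, known as maspin in epithelium, had 45.6 and 100.1 in TOFA and Rap effector cells, against 381 in control effector cells and a naive array at the floor, with 3 other probe sets also 2-fold lower in both. Serpinf1, which encodes the secreted factor PEDF, had 235 and 125, against 961 in the control and a naive array at the floor. Its other probe set did not carry a 2-fold difference in either array and differed by -0.34 with Rap on the log2 scale.

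Serpinb9b, at the floor in both inhibitor arrays, and Serpinf2, at the floor with TOFA and 52.8 with Rap, against 116 in the control, were also 2-fold lower in both. Serpinf2, which encodes the plasmin inhibitor antiplasmin, was not on the serpin list and is named after its values were seen. Of the 9 listed serpin genes compared, 4 were 2-fold lower in both arrays, against 1.17% of all genes. A further 4 lay above 0 in both, against 30.4% of all genes. This list was chosen with earlier results of these data known. Serpinb9, an inhibitor of granzyme B, was 1.12 higher with TOFA and 0.86 higher with Rap. The list therefore held members on both sides of the control.

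Fam183b had a signal of 45.8 in TOFA effector cells and was at the floor in Rap effector and naive cells, against 689 in the control, a difference of 15.0-fold with TOFA and at least 15.9-fold with Rap. Endou, a poly(U)-specific endoribonuclease, had 67.1 and 61.5 in TOFA and Rap effector cells, against 421 in the control and the floor in naive cells. Dpf1, a subunit of neuronal BAF chromatin remodelling complexes, was 4.92-fold lower with TOFA and at least 8.20-fold lower with Rap. Maged1, an adaptor protein of the MAGE family, was 5.75-fold lower with TOFA and at least 6.39-fold lower with Rap. In these 4 genes the control was by far the brightest of the TOFA, Rap, control and naive arrays.

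Further lower genes with a dim signal in both inhibitor arrays included genes best known from other tissues. Lce3c, of the cornified envelope of skin, and Gipr, the receptor of the incretin GIP, were at the floor in both inhibitor arrays and at least 4.59-fold and at least 3.59-fold lower in each. Sbsn, which encodes the keratinocyte protein suprabasin, was 4.27-fold and 4.07-fold lower. Mapk13, the p38 delta kinase, was at least 4.85-fold lower with TOFA and 3.55-fold lower with Rap. Tifab, a negative regulator of TRAF6 signalling, was 3.54-fold and 3.55-fold lower, and the small GTPase Rasl11a at least 3.91-fold and 3.69-fold. Their control signals were between 156 for Gipr and 265 for Tifab.

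**Figure D2:**
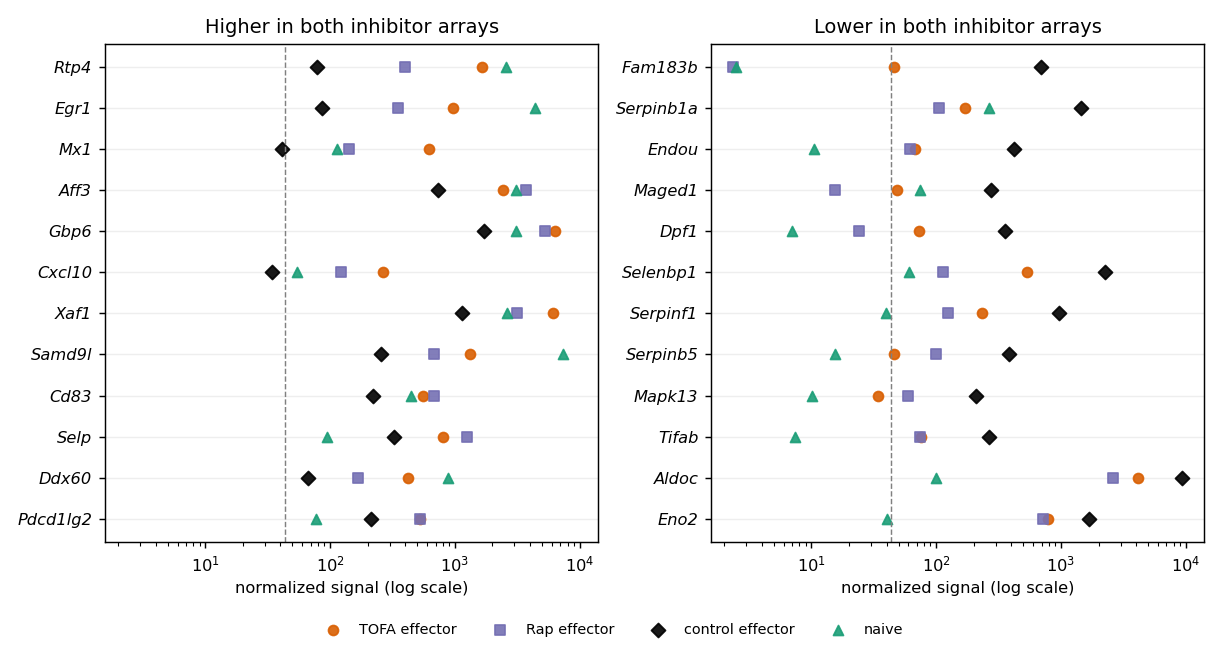
Normalized signal on a log axis for 12 genes higher (left) and 12 genes lower (right) in both inhibitor arrays, with 1 symbol for each of the TOFA effector, Rap effector, control effector and naive arrays. The dashed line is the floor of 43.4. In the left panel the control diamond is left of both inhibitor symbols in every row, and in the right panel it is right of them. The naive triangle is right of the control for Rtp4, Egr1 and Samd9l and left of it for Selp and Pdcd1lg2.

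The place of the naive array was used to ask whether the control alone stood apart. Among the 157 lower genes, the naive array was also at least 2-fold below the control in 121, or 77.1%, so that the control was above the TOFA, Rap and naive arrays alike. The control was 2-fold above the naive array in 15.5% of all genes compared. Among the 80 higher genes, the naive array was at least 2-fold above the control in 41, or 51.2%, against 10.4% of all genes. All of these differences share the control array, so an error of that array raises both shares, and no second control array was there to measure it.

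In the remaining genes the control was not apart from the naive array, or the naive array lay beyond the control. The naive array was within 2-fold of the control in 35 higher and 35 lower genes. It lay 2-fold past the control on the side away from the inhibitors in 4 higher genes and 1 lower gene. The 5 genes in question, named after their values were seen, were Selp, Pdcd1lg2, Gbp2b and Hemgn on the higher side and Pde2a on the lower side. Pde2a, a cyclic nucleotide phosphodiesterase, had 402 in TOFA effector and 490 in Rap effector cells, against 1095 in control effector and 3271 in naive cells.

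The median of control minus naive was -1.03 over the higher genes, 1.51 over the lower genes and 0.01 over all genes compared. Among genes whose brightest effector array reached the 60th percentile, the naive array was 2-fold on the inhibitors' side in 31 of 54 higher genes (57.4%, against 11.3% of 9372 such genes) and in 76 of 93 lower genes (81.7%, against 20% of them). Among dim genes it was so in 10 of 26 higher and 45 of 64 lower genes. The share was therefore not lower when dim genes were left out.

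**Figure D3:**
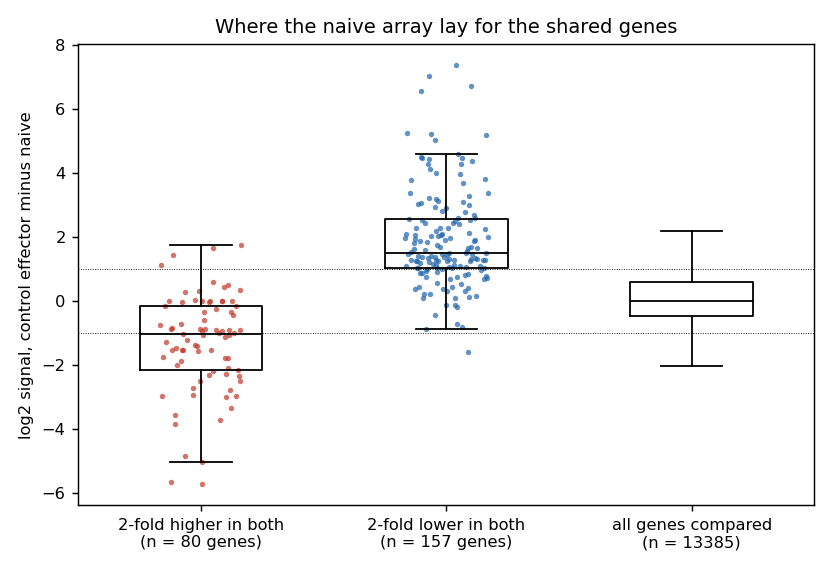
Log2 control effector minus naive for the 80 genes higher in both inhibitor arrays, the 157 genes lower in both and all 13385 genes compared. Boxes give the quartiles with the median as a line, whiskers reach to 1.5 times the box length, and points are genes (not drawn for all genes). The medians are -1.03, 1.51 and 0.01, and the dotted lines mark 2-fold.

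Seen from the naive array, both inhibitor arrays were within 2-fold of it in 95 of the 157 lower genes (60.5%), at least 2-fold above it, and so between naive and control, in 28 (17.8%), and past it on the side away from the control in 13. Of the 80 higher genes, both were within 2-fold of the naive array in 33, between naive and control in 13 and past it in 20. The other genes had the inhibitor arrays in different places. Genes with the TOFA, Rap and naive arrays all at the floor, such as Lce3c and Gipr, count as within 2-fold through the floor alone. Among all genes compared, 11.2% were 2-fold higher and 6.67% were 2-fold lower in both inhibitor arrays than in naive cells. The share of all genes with both inhibitor arrays within 2-fold of naive was not counted.

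Aldoc, Eno2, Me1, Lgals3 and Egr1 belonged to the genes in between. Serpinb1a was instead lower in Rap effector cells than in naive cells by more than 2-fold, and Iigp1 and Acss2 had nearly equal signals in the control and naive arrays. Iigp1, an interferon-inducible GTPase that attacks parasite vacuoles, had 10575 in TOFA effector and 8070 in Rap effector cells, against 3993 in control effector and 4050 in naive cells. Acss2, which makes acetyl-CoA from acetate, had 440 and 185 in TOFA and Rap effector cells, against 930 in control effector and 868 in naive cells. In these 2 genes both inhibitor arrays lay on the same side of the control and naive arrays. Rap for Iigp1 and TOFA for Acss2 were still just within 2-fold of the naive array. Memory cells had 6068 for Iigp1 and 547 for Acss2.

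The memory array gave a further reading, again against the same control. Memory cells were 2-fold on the inhibitors' side of the control in 51 of the 80 higher genes (63.75%) and in 102 of the 157 lower genes (65.0%), where 11.5% of all genes were 2-fold higher and 14% were 2-fold lower in memory than in control effector cells. Control stood apart from the TOFA, Rap, naive and memory arrays in 37 higher and 89 lower genes. The share of all genes with the control apart from naive and memory together was not counted, so these counts have no background beside them. Memory lay 2-fold on the other side in 4 higher and 14 lower genes. The memory array held macrophage markers at a summed signal of 71259 and B cell markers at 48294, and their part in these counts was not tested.

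TOFA and Rap lay within 1.5-fold of each other in 54 of the 80 higher and 123 of the 157 lower genes. In each direction this was most of the shared genes, but a smaller share than the 84.7% of all genes compared. The 123 include the 35 lower genes in which both inhibitor arrays were at the floor. TOFA was 2-fold over Rap in 12 of the higher and 12 of the lower genes and 2-fold under it in 1 higher and 3 lower genes, where all genes gave 3.14% and 1.29%. Among the higher genes the difference was larger in TOFA for 41 and in Rap for 39. Among the lower genes it was larger in TOFA for 42, larger in Rap for 80, and equal, through the floor, for 35.

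Lists of genes by pathway were described by counts and medians of the log2 differences from control, with no test. The lists were written by hand, with earlier results of these data known, and do not hold every member of a family or pathway. List members named beside the shared genes were picked as examples after their values were seen. Selenbp1, Aldoc, Rtp4 and Egr1, the genes that marked this comparison from the start, are also list members. Their place in the list counts is therefore no separate finding. Over all genes compared, 30.4% lay above 0 in both arrays and 33.6% below 0 in both. At 2-fold, 0.598% were higher and 1.17% lower in both arrays. With TOFA 2.38% were 2-fold higher and 2.06% lower, and with Rap 1.75% were higher and 3.76% lower. The median of all genes was 0 in each array.

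Genes of the hypoxia response were on the low side in both arrays. Of 23 genes compared, 20 lay below 0 in both and none above 0 in both, with medians of -0.62 for TOFA and -0.75 for Rap. Selenbp1 and Adm, the gene of the vasodilator peptide adrenomedullin, were 2-fold lower in both. Adm had 119 in TOFA effector cells and the floor in Rap effector cells, against 315 in control effector and 45.2 in naive cells. Plod2, a collagen-modifying lysyl hydroxylase, differed by -0.98 and -1.25, and Ndrg1 by -0.74 and -1.04. Hif1a, which encodes the regulated subunit of HIF-1, differed by 0.39 with TOFA and -0.15 with Rap.

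Glycolytic genes lay below 0 in both arrays in 15 of 16 cases, with medians of -0.23 for TOFA and -0.48 for Rap. Only Aldoc and Eno2 reached 2-fold in both. Eno2, the neuronal isoform of enolase, had 782 in TOFA effector and 715 in Rap effector cells, against 1666 in the control and a naive array at the floor. The main isoforms differed little: Aldoa by -0.17 with TOFA and -0.47 with Rap, Pkm by -0.27 and -0.23, and Ldha by -0.08 and -0.23. Pfkm, a phosphofructokinase, and the glucose transporter Slc2a3 lay between, at -0.89 and -1.07 and at -0.58 and -1.06. In all 16 glycolytic genes and in 18 of the 23 hypoxia genes, the control was 2-fold above the naive array, against 15.5% of all genes.

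A pair of shared lower genes outside the lists, named after their values were seen, encode enzymes of glycogen metabolism, for which no list of genes was counted. Gbe1, the glycogen branching enzyme, had 1519 in TOFA effector and 703 in Rap effector cells, against 3616 in control effector and 258 in naive cells. Pygl, the liver-type glycogen phosphorylase, had 515 and 338 in TOFA and Rap effector cells, against 1637 in control effector and 78.3 in naive cells. Both sat between the control and the naive array in TOFA and in Rap effector cells.

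Lipid synthesis was covered by a fatty acid list and a cholesterol list. Of 20 fatty acid synthesis genes, Acss2, Acacb and Me1 were 2-fold lower in both arrays, and 11 lay below 0 in both, with medians of -0.08 for TOFA and -0.58 for Rap. The TOFA median became 0.02 when each array was divided by its median. Acacb, which encodes the mitochondrial form of acetyl-CoA carboxylase, had 51.6 in TOFA effector cells and the floor in Rap effector cells, against 134 in the control, and its other probe set was at the floor in all 3 effector arrays. Acaca, the cytosolic form, differed by 0.04 with TOFA and -0.04 with Rap.

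Me1, the cytosolic malic enzyme that supplies NADPH, had 520 in TOFA effector and 151 in Rap effector cells, against 1051 in control effector and 46.5 in naive cells. Scd1, a fatty acid desaturase, was apart in Rap alone, at 0.13 with TOFA and -3.09 with Rap. Of 20 cholesterol synthesis genes, 19 lay below 0 in both arrays, with medians of -0.43 for TOFA and -0.99 for Rap. Rap took 10 of them past 2-fold and TOFA 0. Hmgcs1, which makes the precursor of mevalonate, differed by -0.71 with TOFA and -1.37 with Rap, and Lss, the lanosterol synthase, by -0.66 and -1.74.

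Interferon-stimulated genes were on the high side, further with TOFA than with Rap. Of 27 compared, 22 lay above 0 in both arrays, with medians of 1.73 for TOFA and 0.40 for Rap. TOFA had 18 of them 2-fold higher and Rap 7, and the 7 were Rtp4, Mx1, Oas2, Oas3, Irf7, Xaf1 and Cmpk2. Irf7, a transcription factor of the interferon response, had 594 in TOFA effector and 338 in Rap effector cells, against 155 in control effector and 561 in naive cells. Ifit1, an RNA binding antiviral protein, was 2.56 higher with TOFA and at -0.41 with Rap. Dhx58, which encodes the RNA sensor LGP2, was the 1 gene below 0 in both, at -0.29 with TOFA and -1.51 with Rap.

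In naive cells 14 of these 27 genes were 2-fold higher than in the control, and 2 were 2-fold lower. The 9 listed guanylate binding proteins and immunity-related GTPases, which interferon gamma induces, lay above 0 in both arrays in 9 of 9 cases, with medians of 0.73 for TOFA and 0.93 for Rap. Of the listed genes, Gbp6 and Iigp1 passed 2-fold in both. So did 2 guanylate binding proteins that were not on the list and are named after their values were seen, Gbp8, at 1.09 with TOFA and 1.19 with Rap, and Gbp2b, at 1.03 and 1.11. Irgm1, Irgm2 and Gbp2 stood just under it, at 0.99 and 0.72, 0.83 and 0.94, and 0.73 and 0.97 with TOFA and Rap. Ifng, the gene of interferon gamma, differed by -0.84 with TOFA and -2.07 with Rap.

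**Figure D4:**
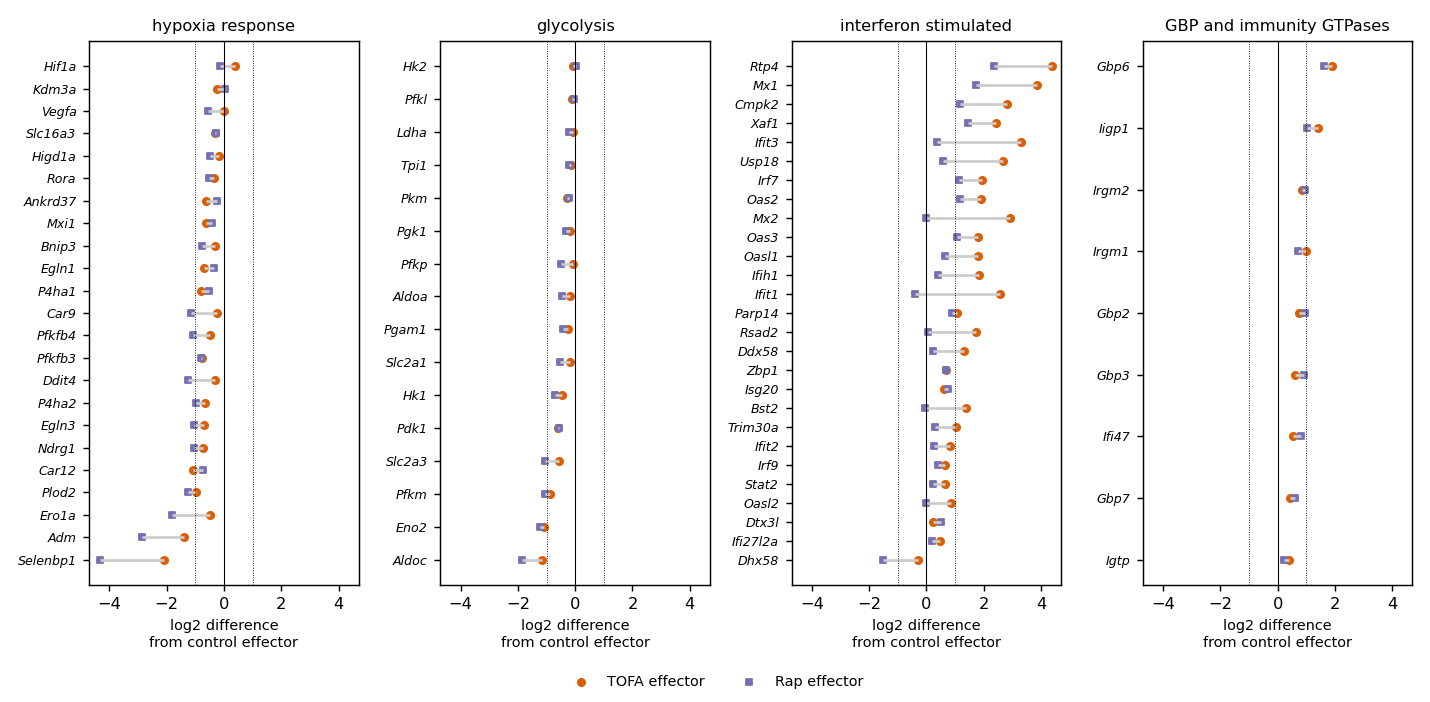
Log2 difference from control effector in TOFA effector cells (circles) and Rap effector cells (squares) for each gene compared in 4 lists, with dotted lines at 2-fold. Hypoxia response and glycolysis genes lie mostly left of 0 and reach 2-fold in both arrays for Selenbp1, Adm, Aldoc and Eno2. Interferon-stimulated genes spread farther to the right for TOFA than for Rap, and all 9 listed GTPases lie right of 0 for both.

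Immediate early genes were mixed. Of 31 compared, 19 lay above 0 in both arrays and 4 below 0 in both, with medians of 0.27 for TOFA and 0.28 for Rap. Egr1, Egr2 and Dusp2 passed 2-fold in both. Dusp2, a nuclear phosphatase of MAP kinases, had 1002 in TOFA effector and 824 in Rap effector cells, against 391 in control effector and 5603 in naive cells. Egr2, a zinc finger factor related to Egr1, had 92.2 and 99.2 in TOFA and Rap effector cells, against a control at the floor and 507 in naive cells. Other members stayed near the control in TOFA effector cells: Jun differed by -0.29 with TOFA and 0.13 with Rap, Myc by -0.06 and 0.79, and Nr4a1 by -0.01 and -0.48.

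Few genes of the Th1 programme itself passed 2-fold in both arrays. The lineage factor Tbx21 differed by 0.24 with TOFA and 0.54 with Rap, and the IL-12 receptor gene Il12rb2 by -0.28 and -0.02. Of 26 Th1 effector genes only Prdm1, which encodes the effector repressor Blimp-1, was 2-fold lower in both, at 527 in TOFA effector and 728 in Rap effector cells, against 1482 in control effector and 303 in naive cells. The list medians were -0.15 for TOFA and 0.00 for Rap. Of the 26 genes, 11 (42.3%) lay below 0 in both, against 33.6% of all genes, and 8 (30.8%) above 0 in both, against 30.4%. TOFA had 3 of them 2-fold lower and 1 higher, and Rap 4 lower and 1 higher. Ifng, whose values are given with the GTPases above, was lower in both arrays and passed 2-fold with Rap alone.

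Of 20 genes linked with memory and naive T cells, Slamf6, an adhesion receptor of the SLAM family, was 2-fold higher in both. It had 985 in TOFA effector and 674 in Rap effector cells, against 305 in control effector and 1503 in naive cells, but 1 of its 2 other probe sets did not go the same way in both. Ccr7, the homing receptor for lymph nodes, differed by 0.65 with TOFA and 1.22 with Rap. The list medians were -0.11 for TOFA and 0.21 for Rap, so the arrays differed in sign.

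Among S100, annexin and galectin genes, 9 of 14 lay below 0 in both arrays and 2 passed 2-fold. S100a4, a calcium binding protein of motile and memory T cells, had 93.6 in TOFA effector and 131 in Rap effector cells, against 348 in control effector and 463 in naive cells. Lgals3, the galectin-3 gene, had 1856 and 1307 in TOFA and Rap effector cells, against 3842 in control effector and 198 in naive cells. For S100a4 the inhibitor arrays were the ones apart, and for Lgals3 they lay between control and naive.

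Lists without a shared 2-fold gene included mitosis, DNA replication, oxidative phosphorylation and ribosome biogenesis. Their medians were -0.42 for TOFA and 0.01 for Rap in mitosis, -0.12 and 0.13 in DNA replication, -0.06 and -0.14 in oxidative phosphorylation, and 0.25 and 0.23 in ribosome biogenesis and MYC targets. The ATF4 and amino acid supply list also had 0 shared genes, although TOFA had 21 of its 34 genes 2-fold higher, because Rap had 4 of them 2-fold lower and none higher. The medians of that list were 1.17 for TOFA and -0.40 for Rap.

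**Figure D5:**
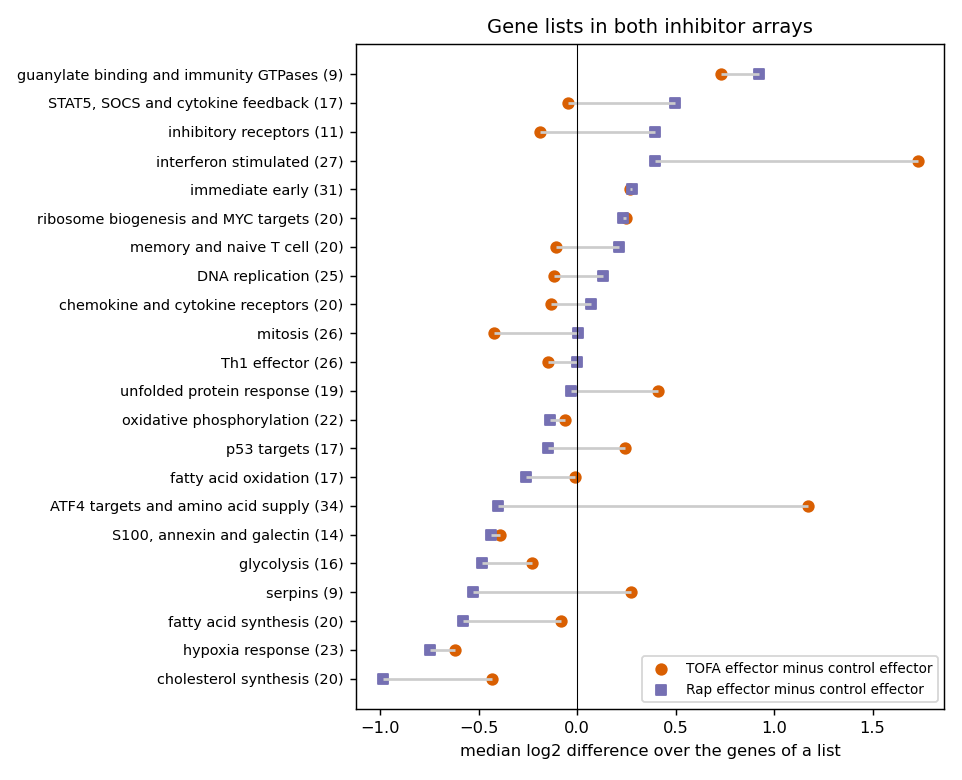
Median log2 difference from control effector over the genes of each list with at least 9 genes compared, for TOFA effector (circles) and Rap effector (squares), with the number of genes in parentheses. Hypoxia response, glycolysis, cholesterol synthesis, fatty acid synthesis, fatty acid oxidation, oxidative phosphorylation and the S100 list have both medians below 0. The GTPase, interferon, immediate early and ribosome biogenesis lists have both above 0. The ATF4 list has TOFA at 1.17 and Rap at -0.40.

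Bright shared lower genes outside these lists, named after their values were seen, had the control well above naive. Mt1, the metal binding protein metallothionein, had 5778 in TOFA effector and 3044 in Rap effector cells, against 12128 in control effector and 114 in naive cells, although its other probe set did not go the same way in both. Nfil3, a basic leucine zipper factor that cytokines induce in T cells, had 2747 and 1942 in TOFA and Rap effector cells, against 5746 in the control and a naive array at the floor. Slamf7, a receptor of the SLAM family on cytotoxic lymphocytes, had 650 and 513, against 1462 in control effector and 82.7 in naive cells. In these genes the inhibitor arrays kept far more signal than the naive array.

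H2-Ab1, an MHC class II chain that mouse B cells and dendritic cells express, also named after its values were seen, had 572 in TOFA effector and 658 in Rap effector cells, against 1576 in control effector and 1424 in naive cells, and 10952 in memory cells. Its 2 other probe sets were also 2-fold lower in both inhibitor arrays. The B cell markers summed to 2185 in TOFA effector, 2439 in Rap effector and 1742 in control effector cells, and the dendritic cell markers to 124 in TOFA effector, 169 in Rap effector and 202 in control effector cells. Itgax and Xcr1 of the dendritic cell markers were below the floor in all 3 arrays. The part of either cell type in the difference was not tested.

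Other probe sets of the shared genes gave a check within the arrays. For the lower genes, 56 of 70 other probe sets above the floor went the same way in both arrays and 20 were 2-fold lower, and all went the same way in 39 of 52 genes. For the higher genes, 17 of 33 went the same way in both, 7 were 2-fold higher, and all went the same way in 12 of 27 genes. Over all genes, 32.9% of other probe sets were lower in both arrays and 31.5% higher in both. Probe sets of a gene share the array and the RNA, so this says nothing of the spread between cultures.

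Of the shared genes, 58 of the 80 higher and 124 of the 157 lower had a promoter in the RefSeq table. A gene with several promoter windows was counted if any of them held the motif. The interferon-stimulated response element, searched on both strands, was held by 15.5% (9) of these higher genes and 3.23% (4) of these lower genes. Of the 10768 genes compared that had a promoter, 3.62% held it. The hypoxia core ACGTG was held by 22.4% (13), 33.9% (42) and 28.7% of the same groups, and the E-box CACGTG, which contains that core, by 12.1%, 7.26% and 11.2%. AP-1 sites (TGANTCA) were held by 13.8%, 8.87% and 6.51%, the GAS element (TTCNNNGAA) by 8.62%, 9.68% and 8.35%, and the SREBP site (TCACNCCAC) by 1.72%, 2.42% and 1.48%. These shares are descriptions of short windows in the reference genome, and the 58 and 124 genes are few for the rarer motifs.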

How the data were processed

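The data were 5 Affymetrix mouse expression arrays, 1 for each of TOFA effector, Rap effector, control effector, naive and memory Th1 cells. GCOS and Affymetrix Expression Console are the tools that the submitters' processing notes name, without versions or an algorithm. What the authors deposited is an intensity, linear and not log-transformed, for every probe set, scaled so that the mean after trimming 2% was 500.003 on all 5 arrays. Because medians of the arrays were up to 0.658 apart in log2, over the limit of 0.5, quantile normalization was applied to the 5 arrays together (NumPy 2.4.6 and pandas 2.3.3 in Python 3.11.15). Signals under the 40th percentile were raised to it. With 64 control probe sets left out, 45037 remained. The 2016 annotation of the platform gave 1 symbol to 34945 of these, several symbols to 932 and no symbol to 9160, and 34741 matched RefSeq by Entrez identifier. Each of 18193 genes was represented by its brightest probe set, by mean log2 over the arrays, and the 13385 that exceeded the floor in at least 1 effector array were compared.

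A gene was shared when both inhibitor arrays lay 2-fold or more from the control in the same direction. The limit on precision is the number of arrays, so no test between groups was made. Genes were named by this rule: the 4 markers Selenbp1, Aldoc, Rtp4 and Egr1, the 14 shared genes of each direction with the largest smaller difference that were bright and whose probe sets above the floor went the same way, up to 3 shared members of each list, and the 2 genes just inside and outside the threshold. Predicted genes were skipped, list values of further members are given as examples, and genes named after their values were seen are marked so. Of 531 entries in 30 gene lists, 488 were on the array. The members and lists were chosen with earlier results of these data known. The code that counts shared genes was checked on simulated data with known differences, which is no test of the counts themselves, and alternatives of normalization, floor, probe set choice and threshold were computed.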

Additional observations from a re-analysis of the deposited data

How the results depend on the processing

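The counts of 80 higher and 157 lower shared genes, 162 of them with the control apart from naive too, depended most on the floor and the threshold. With the floor at the 20th percentile they were 463, 606 and 626, and with the floor at the 60th percentile 25, 59 and 68, since a lower floor lets in dimmer signals. Adding the floor value as a constant gave 45 higher genes, 101 with the control apart and 17 list members in place of 27. At 1.5-fold in both arrays the counts were 370, 608 and 678, at 3-fold 9, 27 and 29, and for the mean of TOFA and Rap past 2-fold 167 higher and 277 lower. The values as deposited gave 58 and 157 shared genes, median scaling 98 and 143, the mean of all probe sets 55 and 113, and leaving out cross-hybridising probe sets 83 and 152. Through these 7 alternatives of normalization, floor and probe set at 2-fold, 10 of the 80 higher genes (Rtp4, Egr1, Aff3, Gbp6, Xaf1, Samd9l, Cd83, Selp, Pdcd1lg2 and Gbp8) and 31 of the 157 lower genes, Selenbp1 and Aldoc among them, were called each time. Of 670 values of named genes past 2-fold, 588 stayed past it and 1 value reversed, Arhgap39 in TOFA minus control at -0.27 without those probe sets. Dividing by the array median moved the median of genes above the floor in all 3 effector arrays by 0.13 for TOFA and 0.05 for Rap. With 1 array per group no replicate could be left out, and signal near background limits every value at the floor. No paired analysis was possible because each group has 1 array.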
